A study of Mus musculus with 12 samples.

Results

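The dynein, CFAP, tektin, radial spoke and IFT genes build and service the axoneme, the microtubule core of the sperm tail. Their probes were taken from the array by gene symbol alone: every probe whose symbol starts with Dnah, Dnai, Dnal, Dnaaf, Cfap, Tekt or Rsph, or with Ift and a digit. The array has 130 such probes for 70 genes. Of these, 111 probes for 64 genes had a detection p-value below 0.05 on 1 or more of the 12 arrays. This p-value is the share of negative-control beads that give at least as high a signal as the probe. These 111 probes are the members described here, among 45281 probes and 19057 named genes on the array. A total of 110 member probes entered the tests, among 28751 probes tested. The remaining member, the Dnah2 probe ILMN_3047422, was detected only on an array that was left out. The 19 undetected probes included all probes of Cfap36, Dnaaf6b, Dnah10, Dnah6, Dnah9 and Dnal4.

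The motile axoneme is a ring of microtubule doublets around a central pair. Outer and inner dynein arms, built of heavy chains (Dnah), intermediate chains (Dnai) and light chains (Dnal), walk along the neighbouring doublet and bend the tail, and Dnaaf proteins fold and assemble the arms in the cytoplasm. Radial spokes (Rsph) link the doublets to the central pair, tektins (Tekt) run inside the doublets, and CFAP is a collective name for cilia and flagella associated proteins. Intraflagellar transport (IFT) particles of classes A and B carry parts in and out of a growing cilium or tail. In the mouse testis much of this machinery is transcribed in meiosis or soon after it, and the tail grows out from the round spermatid.

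The study asked what is transcribed differently in male germ cells without BAZ1A, a subunit of the ACF and CHRAC chromatin remodelers. RNA came from round spermatids and from pachytene/diplotene spermatocytes sorted by Hoechst staining, with 1 array for each mouse and cell type. Baz1a-/- mice carry a germline deletion of exon sequence made with a Cre transgene driven by the Stra8 promoter. Baz1a+/- littermates, which keep 1 functional allele, were the controls, and no wild-type mouse was measured. Both genotypes were on a mixed C57BL/6J and FVB/NJ background. The groups were mutant spermatids (n = 3), control spermatids (n = 3), mutant spermatocytes (n = 2, mice 2 and 3) and control spermatocytes (n = 3). The spermatocyte array of mutant mouse 1, which the labels mark as censored, entered no test. The study left it out because purity was not known for it and its expression data pointed to substantial spermatid contamination. Mice are numbered within a genotype, and mutant mouse 1 is not known to be the littermate of control mouse 1. The table used here gave no probe the symbol of the targeted gene, so its level was not analysed.

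The median signal per array lay between 101 and 118 bead intensity units, and 85 to 100 of the 111 members were detected on each array. Marker genes separated the labelled cell types, with a wide range of spermatid markers among the spermatocyte arrays. The mean log2 signal of 13 round spermatid genes was 12.22 to 12.39 in mutant spermatids and 11.94 to 12.10 in control spermatids, against 8.12 to 10.23 in mutant spermatocytes and 7.19 to 9.05 in control spermatocytes. The mean of 11 spermatocyte genes was 7.21 to 7.46 in mutant spermatids and 7.48 to 7.77 in control spermatids, against 9.12 to 9.20 in mutant spermatocytes and 9.05 to 9.17 in control spermatocytes. Efferent duct and other multiciliated epithelium, the cell type of the genital tract that also builds motile axonemes, was followed with 9 genes. Their mean was 5.48 to 5.68 in mutant spermatids and 5.43 to 5.83 in control spermatids. At most 5 of the 9 were detected on a mutant array and 6 on a control array, Trp73 and Slc9a3 were detected on none of the spermatid arrays, and none of the 9 was called between genotypes. Foxj1 and Ccno, both among the 9, were detected on every spermatid array. Foxj1 was 2.02 log2 higher in control spermatids than in control spermatocytes. Whether their signal comes from spermatids or from epithelium was not tested.

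Between control spermatids and control spermatocytes the members went both ways. A probe was called when its groups differed at least 2-fold with a Benjamini-Hochberg adjusted p under 0.05 over all 28751 probes (limma). On this rule 15 member probes for 12 genes were higher in spermatids and 14 probes for 10 genes were lower, so 26.4% of the members were called, against 28.3% of all probes tested. Of all probes, 13% were higher and 15.2% lower. The median difference of the members was -0.03 log2, against -0.05 over all probes. The groups did not overlap for 71 of the 110 members (64.5%), against 51.4% of all probes. At an adjusted p under 0.05 whatever the fold, 25 members were higher and 34 lower, which is 53.6% of them, against 45.1% of all probes. Each of these is a difference in RNA per unit of total RNA from a pool of cells, in which fewer cells of a type and less RNA per cell cannot be told apart.

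**Figure D1:**
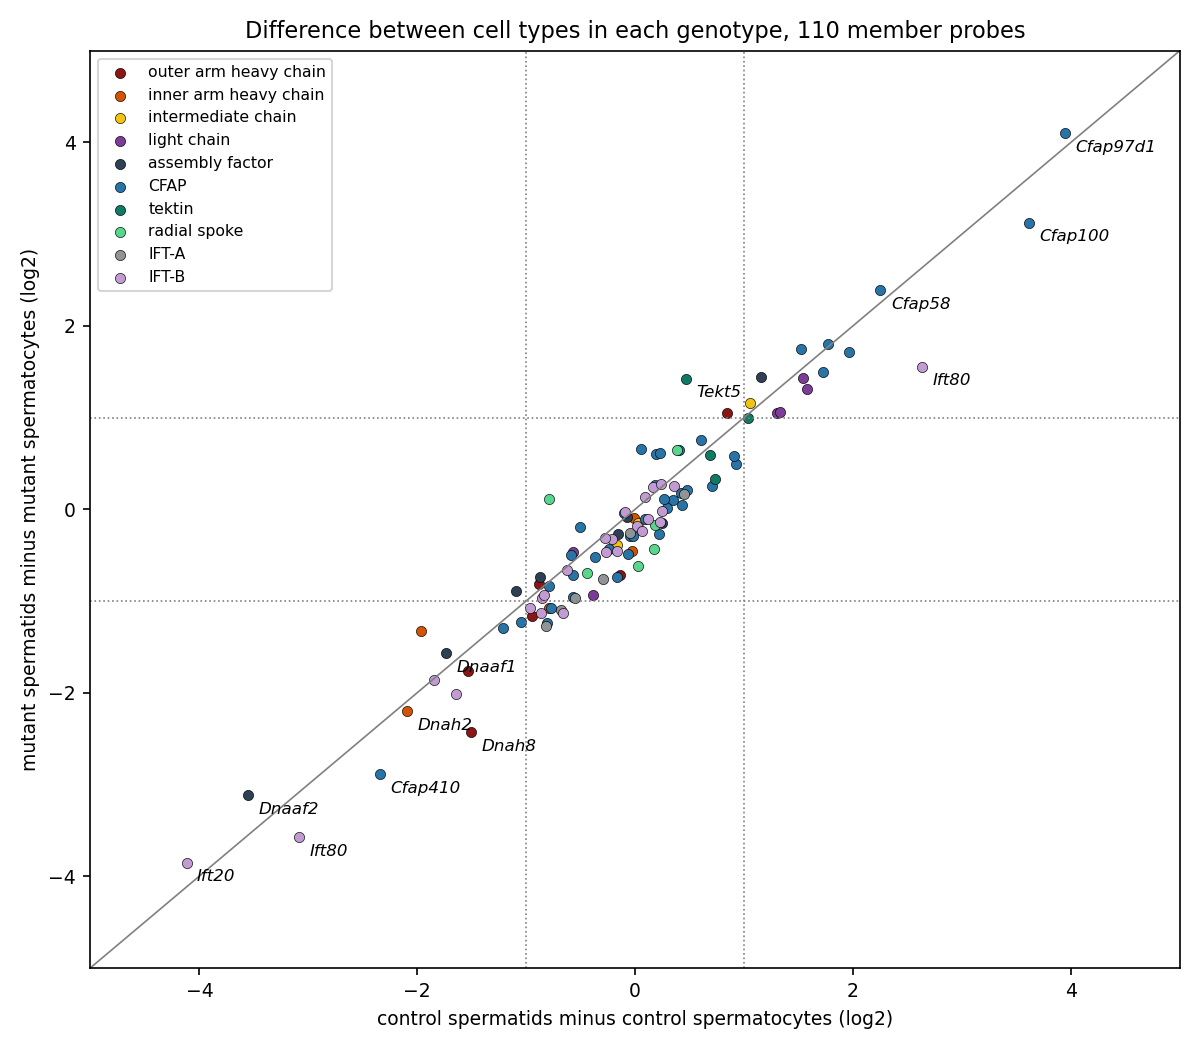
Difference between spermatids and spermatocytes for each of the 110 member probes, on the log2 scale, in mutants and in controls (vertical axis mutants, horizontal axis controls), coloured by role, with dotted lines at the 2-fold limit. Most probes lie near the diagonal: 14 were called higher and 13 called lower in both genotypes, and none was called in opposite directions.

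CFAP genes gave the largest rises. Cfap97d1 (ILMN_2681375, chromosome 11), which mouse sperm need to keep the axoneme intact, had a log2 signal of 11.54, 11.70 and 11.47 in mutant spermatids and 11.19, 10.90 and 11.15 in control spermatids, against 6.31 and 8.61 in mutant spermatocytes and 7.65, 5.88 and 7.59 in control spermatocytes. The spermatid arrays of each genotype lay close together, with all mutant arrays above all control arrays, a difference that was not called. The spermatocyte arrays of both genotypes spread over more than 1 log2 unit. Spermatids were higher by 4.10 ± 0.61 (SE; adjusted p = 0.000112) in mutants and by 3.95 ± 0.43 (adjusted p = 3.76e-06) in controls. The mutant value rests on 2 unlike spermatocyte arrays: it was 2.95 without that of mouse 2 and 5.25 without that of mouse 3. The arrays with lower values were those with lower round spermatid markers, whose mean was 8.12 and 10.23 on these mutant arrays and 8.99, 7.19 and 9.05 on the control spermatocyte arrays. Cell counts under the microscope in the study found the sorted spermatocytes of mutant mouse 2 purer than those of mutant mouse 3. Among controls mouse 3 was the purest and mouse 1 the least pure, which is not the order of these markers. The part of spermatid RNA in the spermatocyte values was not tested.

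Cfap100 (ILMN_1236738, chromosome 6), whose algal counterpart belongs to a complex that regulates inner arm dynein, had a low signal in the sorted spermatocytes. Its log2 signal was 7.62, 8.51 and 8.68 in mutant spermatids and 7.58, 8.39 and 8.33 in control spermatids, against 4.53 and 5.92 in mutant spermatocytes and 4.47, 4.33 and 5.0 in control spermatocytes. Only 1 spermatocyte array of each genotype detected it. The difference was 3.13 ± 0.43 in mutants (adjusted p = 6.18e-05) and 3.61 ± 0.30 in controls (adjusted p = 3.92e-07). Without the spermatocyte array of mutant mouse 2 or 3 the mutant difference was 2.43 or 3.82. Cfap58 (ILMN_1252475, chromosome 19), required for the mid-piece and axoneme of the sperm tail, had already a high signal in spermatocytes, 8.66 and 9.69 in mutants and 9.53, 9.49 and 9.53 in controls. In spermatids it reached 11.26, 11.36 and 11.94 in mutants and 11.62, 11.79 and 11.84 in controls. It rose by 2.39 ± 0.30 in mutants and by 2.25 ± 0.21 in controls.

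In all, 7 of 41 CFAP probes (6 of 26 genes; 17.1%) were higher in control spermatids and 3 (7.32%) were lower, against 13% and 15.2% of all probes, so the share called, 24.4%, was near the 28.3% of all probes. The other genes that rose were Cfap157, which acts at the basal body and central pair of sperm (1.97 and 1.72 log2 in controls for its pair of probes), Cfap126, the microtubule inner protein also called Flattop (1.77), and Cfap61, a protein at the base of a radial spoke (1.52). For Cfap61 the mutant difference of 1.74 was 1.06 without spermatocyte mouse 2 and 2.43 without mouse 3. The genes that fell were Cfap410, Cfap65 and Cfap74. Cfap410 (ILMN_2449725), a ciliary protein that works with the kinase NEK1, had 4.81, 4.69 and 4.60 in mutant spermatids and 5.67, 5.04 and 5.58 in control spermatids, against 8.01 and 7.13 in mutant spermatocytes and 7.80, 8.16 and 7.20 in control spermatocytes. Its fall was -2.34 log2 in controls. In mutants the probe was not detected in any spermatid array, which gives spermatids at least 6.75-fold lower (the dim group taken at the weakest detected signal of each array). A second Cfap410 probe (ILMN_2706652) differed by -0.10 in controls (adjusted p = 0.72). Cfap65, a sperm tail protein of the central pair apparatus, fell by 1.22 on the log2 scale in controls, and Cfap74, a protein of a central pair projection, by 1.05. The call for Cfap74 was lost when any of 3 control arrays was left out, and its difference was -0.79 (adjusted p = 0.064) without control mouse 3. The brightest CFAP probe, ILMN_2594224 of Cfap206, differed by 0.43 log2 in controls and was not called.

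Of the 11 dynein heavy chain probes (7 genes), 10 had a difference below 0 in controls, against 15636 of all 28751 probes. The median of the 11 was -0.88 log2, against -0.05 over all probes. The 4 that were called lower (36.4%, against 15.2% of all probes) belong to 2 genes, Dnah2 and Dnah8. Of the 6 light chain probes, 4 were called higher (66.7%, against 13% of all probes), but they belong to 2 genes, Dnal1 and Dnali1, each of which also had a probe below 0. No test was made between the subunit classes. Dnah2 (ILMN_3123043, chromosome 11), an inner arm heavy chain, had 8.97, 8.56 and 8.43 in mutant spermatids and 9.31, 8.80 and 8.93 in control spermatids, against 10.93 and 10.70 in mutant spermatocytes and 10.94, 11.08 and 11.37 in control spermatocytes. The cell types were more than 1 log2 unit apart on every array. Spermatids were lower by 2.20 ± 0.26 log2 in mutants and by 2.09 ± 0.18 in controls, and a second Dnah2 probe (ILMN_1233826) fell as well, by 1.33 and 1.96 on the log2 scale.

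Dnah8 (chromosome 17), an outer arm heavy chain of sperm, fell on both of its probes, by 1.53 on the log2 scale in controls on the brighter one (ILMN_2602341) and by 1.5 on the dimmer one (ILMN_1215666). Dnah5, an outer arm heavy chain of motile cilia, was the heavy chain with a difference above 0 in controls (0.84, at least 1.29-fold higher because no control spermatocyte array detected it). For the light chains, 3 of 4 probes of Dnal1, a light chain bound to the outer arm motor domain, rose by 1.58, 1.54 and 1.30 log2 in controls. The fourth Dnal1 probe (ILMN_1238043) differed by -0.57. Dnali1, a light chain of inner arms, rose by 1.33 on one probe (ILMN_2872896) and differed by -0.38 on the other (ILMN_1241955).

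The intermediate chain Dnaic2 of the outer arm (ILMN_1258216, chromosome 11) had a log2 signal of 7.0, 6.20 and 5.95 in mutant spermatids and 7.83, 6.93 and 7.56 in control spermatids, against 4.51 and 5.77 in mutant spermatocytes and 6.20, 6.25 and 6.90 in control spermatocytes. Within each genotype every spermatid array was above every spermatocyte array, narrowly so for 1 pair of arrays in each. It rose by 1.16 ± 0.43 in mutants (adjusted p = 0.048) and by 1.05 ± 0.30 in controls (adjusted p = 0.011). The partner chain Dnaic1 (ILMN_2744879) differed by -0.16 in controls.

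Among the assembly factors, Dnaaf2 gave the largest fall. Its probe ILMN_1229416 (chromosome 12) had 4.88, 5.62 and 5.17 in mutant spermatids and 5.96, 4.75 and 4.54 in control spermatids, against 8.80 and 7.93 in mutant spermatocytes and 8.72, 8.42 and 8.18 in control spermatocytes. No spermatid array came within 1 log2 unit of a spermatocyte array. The fall was -3.12 ± 0.45 in mutants and -3.55 ± 0.31 in controls, yet the second probe of the gene (ILMN_2972929) differed by -0.08 in both genotypes. Dnaaf1 showed the same divergence between probes: ILMN_1218597 fell by 1.74 on the log2 scale in controls, while ILMN_2696418, among the brightest members, differed by 0.25. Dnaaf3 rose by 1.16 in controls and by 1.44 in mutants. Dnaaf6 fell by 1.09 in controls and differed by -0.89 in mutants (adjusted p = 0.016), where it was at least 1.67-fold lower and not called. The control call was lost when the spermatocyte array of control mouse 1 or 2 was left out.

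Of 4 tektin probes (3 genes), 1 was called between control cell types (25%, against 28.3% of all probes), that of Tekt3, which rose by 1.03 log2 in controls and differed by 0.996 in mutants, just under the 2-fold limit. The brightest tektin probe, ILMN_1239718 of Tekt1, differed by 0.73 log2 in controls and was not called. None of the 6 radial spoke probes (5 genes) was called, with a median of 0.10. Rsph1, a protein of the spoke head, was the brightest radial spoke gene and differed by 0.03 ± 0.15 in controls (95% interval -0.30 to 0.36). Rsph4a, another spoke head protein, was detected, among the tested arrays, only in the 3 control spermatocyte ones. Its difference between control cell types was -0.79, at least 1.54-fold lower in spermatids, and was not called.

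Intraflagellar transport held the deepest fall of all members. Ift20, the IFT-B subunit that also sits at the Golgi, fell on 3 of 3 probes. The first (ILMN_2592093, chromosome 11) had 5.77, 6.16 and 5.98 in mutant spermatids and 6.12, 5.95 and 5.88 in control spermatids, against 10.10 and 9.58 in mutant spermatocytes and 10.05, 10.14 and 10.07 in control spermatocytes. Arrays of a cell type stayed within 0.6 log2 units of each other. The fall was -3.85 ± 0.23 in mutants (adjusted p = 3.67e-07) and -4.12 ± 0.16 in controls (adjusted p = 6.01e-09), and it was -1.64 and -1.85 in controls on the other probes. Across the 31 IFT probes (14 genes), 1 was called higher and 4 lower in controls, that is 16.1% of them, against 28.3% of all probes. The brightest IFT-B probe, ILMN_2611450 of Ift172, differed by -0.21 log2 in controls and was not called.

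Ift80, another IFT-B subunit, was the member gene called in both directions. Probe ILMN_1247819 (chromosome 3) had 5.20, 6.12 and 6.40 in mutant spermatids and 5.77, 7.58 and 7.49 in control spermatids, against 4.32 and 4.57 in mutant spermatocytes and 4.34, 4.38 and 4.81 in control spermatocytes, where it was not detected on any array. Spermatids were therefore at least 2.10-fold higher in mutants and at least 4.40-fold higher in controls (adjusted p = 0.034 and 4.8e-05). Probe ILMN_1226497 had 5.71, 5.18 and 4.98 in mutant spermatids and 6.08, 5.39 and 5.77 in control spermatids, against 9.27 and 8.35 in mutant spermatocytes and 8.56, 9.0 and 9.11 in control spermatocytes. It fell by 3.58 on the log2 scale in mutants and by 3.08 in controls. The gene table assigns both probes to Ift80, and which transcripts each of them reads was not analysed here. The call for the first probe in mutants was lost when mutant mouse 2 or 3 was left out of the spermatids, or mutant mouse 2 out of the spermatocytes.

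**Figure D2:**
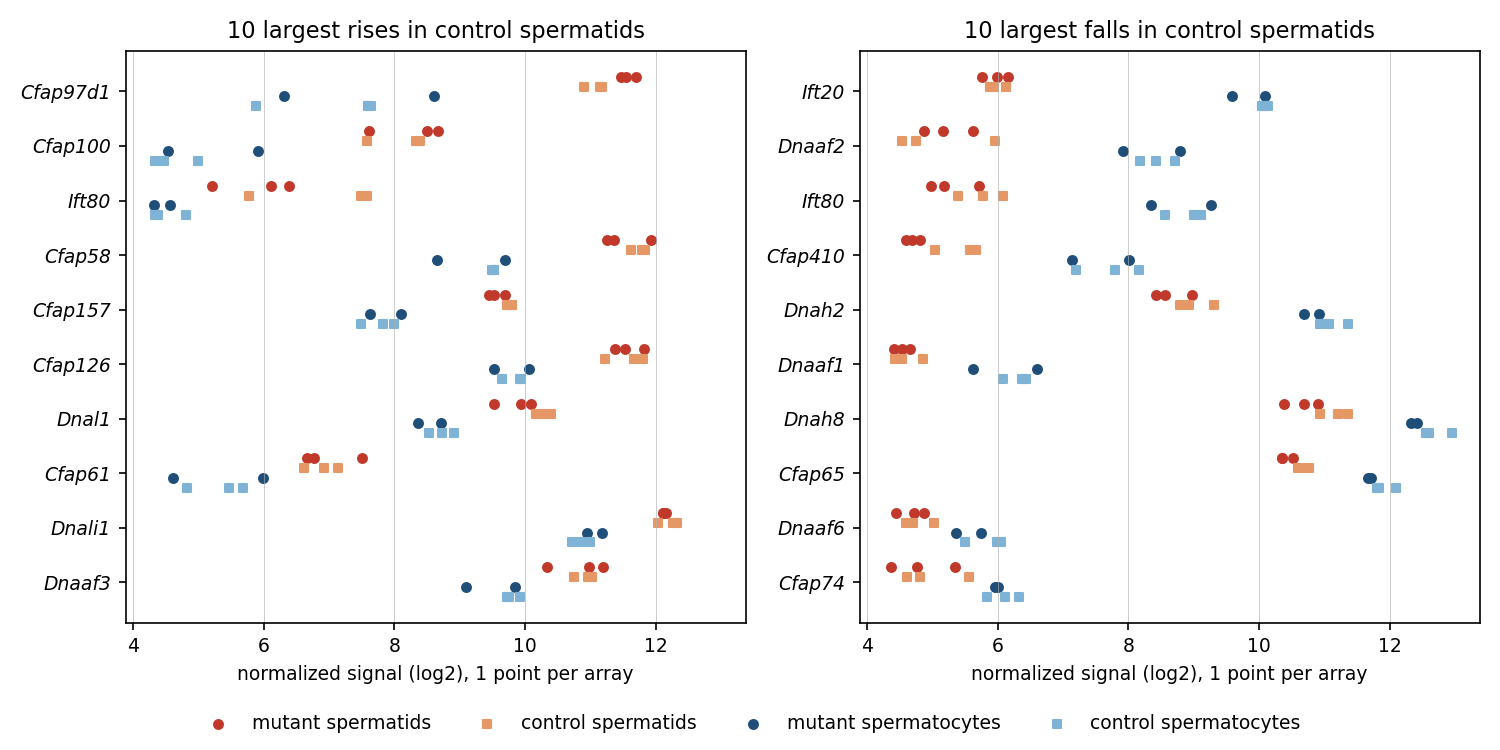
Log2 signal of the 10 largest rises and the 10 largest falls called between control spermatids and control spermatocytes (1 probe a gene), 1 point for each array, in mutant and control spermatids and in mutant and control spermatocytes. Cfap97d1 and Cfap100 stand more than 3 log2 units higher in spermatids, and Ift20 and Dnaaf2 more than 3 lower, in both genotypes.

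Different probes of a gene did not always give the same call. Of the 32 member genes with 2 or more tested probes, 4 had all probes called in the same direction between control cell types, 20 had none called, 7 had some called and others not, and 1, Ift80, had probes called in opposite directions. With the brightest probe alone for each gene, 11 genes were higher and 7 lower in control spermatids.

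Between mutant cell types 16 member probes were higher and 22 lower in spermatids than in spermatocytes, together 34.5% of the members, against 31.3% of all probes tested (14.8% higher and 16.5% lower). The balance of higher and lower depends on the scaling: with arrays scaled to a common median it was 16 higher and 12 lower in mutants, and 12 higher and 23 lower in controls. The groups did not overlap for 77 members, 70% of them, against 58.2% of all probes. The median was -0.24 log2, against -0.03 over all probes. These mutant values share no array with the control ones. The 2 probes called higher in mutants alone were those of Dnah5 (at least 1.46-fold) and Tekt5. In controls alone, 1 probe was called higher, that of Tekt3, and 1 lower, that of Dnaaf6. The 9 called lower in mutants alone were probes of Cfap70, Ift140, Ift27, Ift52, Dnah17 and Dnah1. Ift140 (ILMN_3060168), an IFT-A subunit, was lower by 1.27 ± 0.24 log2 in mutants and by 0.82 ± 0.17 in controls, and the difference between these was -0.45 (adjusted p = 0.85). Being called in 1 genotype alone was not matched by a call in the test of the difference between genotypes (limma). None of the 110 members was called in that test, against 0.153% of all probes. An unadjusted p under 0.05 was reached by 5 members, against 2016 of all 28751 probes. The 95% interval of this difference reached 0.69 log2 to either side (median of the members). With few calls among all probes and intervals this wide, the test cannot decide whether the probes called in 1 genotype alone differ between genotypes.

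Promoters were searched for short letter patterns. A promoter of 250 bases before and 50 after the transcription start was found for 53 of the 64 member genes (RefSeq, GRCm38.p6). The core GTTGCC bound by RFX factors, which drive ciliary genes, was present on either strand in 20 of the 53 (37.7%), against 14.1% of 27025 genes. Genes with a probe higher in control spermatids held it in 3 of 10, genes with a probe lower in 3 of 7, and the rest in 14 of 36. The full X-box, in which this core is repeated as an inverted copy, was in 3 of the 53 (5.66%), those of Dnaaf6, Cfap298 and Cfap20dc, against 0.529% of all genes. TGACGT, the core of CRE elements, which the testis factor CREM binds, was in 9.43%, against 8.37%, and its extension TGACGTCA in 1.89%, against 2.03%. TATAAA was in the promoter of Cfap97d1 alone (1.89%), against 15.7%, and CCAAT in 45.3%, against 41.1%. In total 18 letter patterns were searched, all on both strands. The others were 5 variants of the X-box, the looser RFX core GTTNCC (79.2%, against 48.8%), the CRE variants TGACGTCAC (1.89%, against 1.49%) and TGACGNNA (5.66%, against 7.56%), the E-box CACGTG (7.55%, against 8.09%), the MYB motifs AACTGTCA (5.66%, against 1.37%) and CAGTTG (28.3%, against 15.4%), and the GC box CCGCCC (47.2%, against 38.2%). Patterns of the same factor overlap each other.

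The upstream part is printed for the largest riser and a riser with an RFX core, for the pair of largest fallers and for a faller with an X-box. Each reads 5′ to 3′ on the strand of the gene, ends just before the start, and has the matched letters in capitals. The positions are Cfap97d1 at chr11:101986806-101987055 (plus strand, TATAAA in capitals), Cfap58 at chr19:47937462-47937711 (plus, GTTGCC), Ift20 at chr11:78536111-78536360 (plus, TGACGT), Dnaaf2 at chr12:69198430-69198679 (minus, GTTGCC read on the opposite strand) and Dnaaf6 at chr1:31222589-31222838 (plus, the X-box).
Cfap97d1 promoter: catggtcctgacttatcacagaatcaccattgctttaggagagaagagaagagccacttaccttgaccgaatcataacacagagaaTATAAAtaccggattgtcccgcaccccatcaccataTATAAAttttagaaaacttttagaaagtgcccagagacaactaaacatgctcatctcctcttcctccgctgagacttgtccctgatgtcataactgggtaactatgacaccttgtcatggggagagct
Cfap58 promoter: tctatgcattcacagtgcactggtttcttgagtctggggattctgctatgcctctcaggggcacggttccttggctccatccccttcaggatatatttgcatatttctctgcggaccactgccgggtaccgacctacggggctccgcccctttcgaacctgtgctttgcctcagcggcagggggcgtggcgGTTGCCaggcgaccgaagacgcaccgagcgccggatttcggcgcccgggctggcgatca
Ift20 promoter: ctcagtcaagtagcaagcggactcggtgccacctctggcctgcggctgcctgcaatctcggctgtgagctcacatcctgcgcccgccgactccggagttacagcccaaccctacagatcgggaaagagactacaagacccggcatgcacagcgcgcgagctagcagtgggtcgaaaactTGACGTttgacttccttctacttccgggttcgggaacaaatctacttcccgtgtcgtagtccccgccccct
Dnaaf2 promoter: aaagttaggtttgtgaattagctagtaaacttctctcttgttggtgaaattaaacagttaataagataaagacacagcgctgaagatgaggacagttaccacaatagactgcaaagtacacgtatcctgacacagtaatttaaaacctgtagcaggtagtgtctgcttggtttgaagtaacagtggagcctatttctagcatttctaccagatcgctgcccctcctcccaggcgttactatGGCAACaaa
Dnaaf6 promoter: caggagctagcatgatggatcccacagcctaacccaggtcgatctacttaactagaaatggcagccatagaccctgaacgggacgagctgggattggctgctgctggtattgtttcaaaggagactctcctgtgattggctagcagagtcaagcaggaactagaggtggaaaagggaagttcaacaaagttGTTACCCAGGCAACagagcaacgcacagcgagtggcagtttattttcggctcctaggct
The TATAAA matches of Cfap97d1 end 158 and 122 bases before the start, and the TGACGT of Ift20 ends 65 before it. The RFX core of Cfap58 ends 53 bases before the start, that of Dnaaf2 only 3, and the X-box of Dnaaf6 45. A match describes letters in these windows and no binding was measured.

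Heavy chains, spokes and transport genes alike stayed short of the calling rule between genotypes in spermatids. None of the 110 members was called between mutant and control spermatids (limma), against 4.03% of all probes tested, and 21 had an unadjusted p under 0.05, against 5618 of all 28751 probes. A total of 82 members had a difference below 0 and 28 above it, against 15686 below and 13065 above among all 28751 probes. The median of the members was -0.15 log2, against -0.03 over all probes. The groups did not overlap for 28 members (25.5%), against 23% of all probes. The 95% interval of a member reached 0.42 log2 to either side (median). Whatever the fold, 3 members (2.73%) had an adjusted p under 0.05, those of Dnah8, Rsph9 and Tekt5, against 7.53% of all probes.

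Dnah8 (ILMN_1215666) had 6.67, 6.85 and 6.33 in mutant spermatids, against 7.66, 7.42 and 7.62 in control spermatids. The arrays of the genotypes were clearly apart. The difference of -0.97 ± 0.20 log2 (adjusted p = 0.0078) missed the 2-fold limit narrowly. The probe passed it when the spermatid array of mutant mouse 2 or of control mouse 2 was left out. The brighter Dnah8 probe had 10.91, 10.68 and 10.38 in mutants, against 11.37, 11.20 and 10.93 in controls, a difference of -0.51 (adjusted p = 0.13), and there 1 gap between arrays was only narrow. In spermatocytes the first probe had 9.18 and 8.86 in mutants, against 8.96, 8.92 and 9.49 in controls, and the difference of the effects between cell types was -0.93 (adjusted p = 0.48).

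Rsph9, a spoke head protein, had 11.57, 11.18 and 11.43 in mutant spermatids, against 12.07, 12.002 and 12.03 in control spermatids (ILMN_2775220, chromosome 17). The control arrays lay within 0.1 log2 units and all mutant arrays were below them. The difference was -0.65 ± 0.16 (adjusted p = 0.023), and a second probe (ILMN_2935237) gave -0.56 (adjusted p = 0.099). Tekt5, a tektin of sperm, went the other way, with 9.54, 9.93 and 9.29 in mutant spermatids, against 8.78, 8.85 and 9.03 in control spermatids (ILMN_1250633, chromosome 16). All mutant arrays were above all control arrays, by 0.67 ± 0.18 log2 (adjusted p = 0.041). In spermatocytes Tekt5 had 8.04 and 8.25 in mutants, against 8.50, 8.32 and 8.47 in controls, so the order of the genotypes was turned there, and the difference of the effects between cell types was 0.96 (adjusted p = 0.37).

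**Figure D3:**
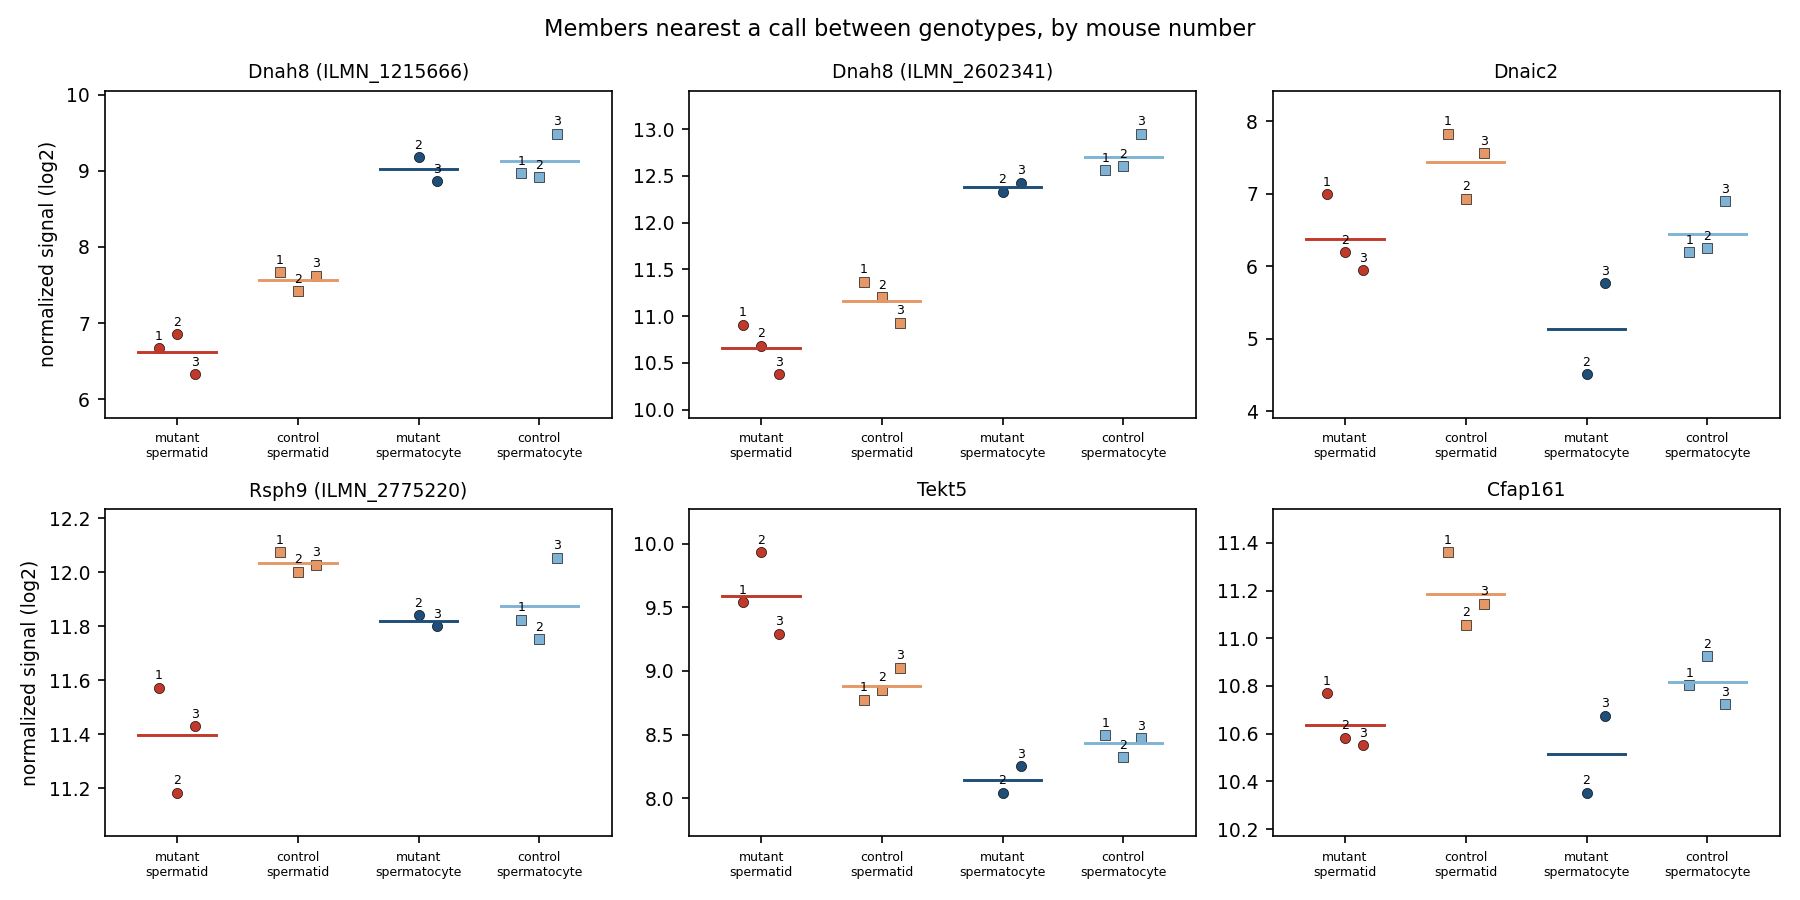
Log2 signal of the members with the smallest p between mutant and control spermatids, 1 point for each array with its mouse number and a horizontal bar for the mean of each group, with mutant left of control in each cell type. For Dnah8, Rsph9 and Tekt5 the spermatid arrays of the genotypes do not overlap, and for Dnaic2 they do.

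The next smallest p-values belonged to Dnaic2 and to Cfap161, a microtubule inner protein. Dnaic2, with the spermatid values given above, had a difference of -1.12 ± 0.32 between genotypes in spermatids (adjusted p = 0.0507), and mutant mouse 1 lay above control mouse 2. It was called when the spermatid array of mutant mouse 1 or control mouse 2 was left out, or the spermatocyte array of mutant mouse 2 or 3 or of control mouse 3. Cfap161 (ILMN_2670708) had 10.77, 10.58 and 10.55 in mutant spermatids, against 11.36, 11.06 and 11.15 in control spermatids. The groups did not overlap and the difference was -0.55 (adjusted p = 0.053).

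By role, the median difference between genotypes in spermatids was -0.13 log2 for outer arm heavy chains (6 probes) and -0.12 for inner arm ones (5). It was -0.35 for intermediate chains (3, of 2 genes) and -0.41 for light chains (6, of 2 genes). Assembly factors were at -0.03 (8), CFAP genes at -0.20 (41), tektins at -0.26 (4) and radial spoke genes at -0.47 (6). IFT-A was at -0.42 (6) and IFT-B at -0.04 (25). All 6 IFT-A probes were below 0, against 15686 of all 28751 probes, but they belong to 3 genes, with 4 of them probes of Ift140. These medians lie well under the 2-fold limit and carry no test.

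**Figure D4:**
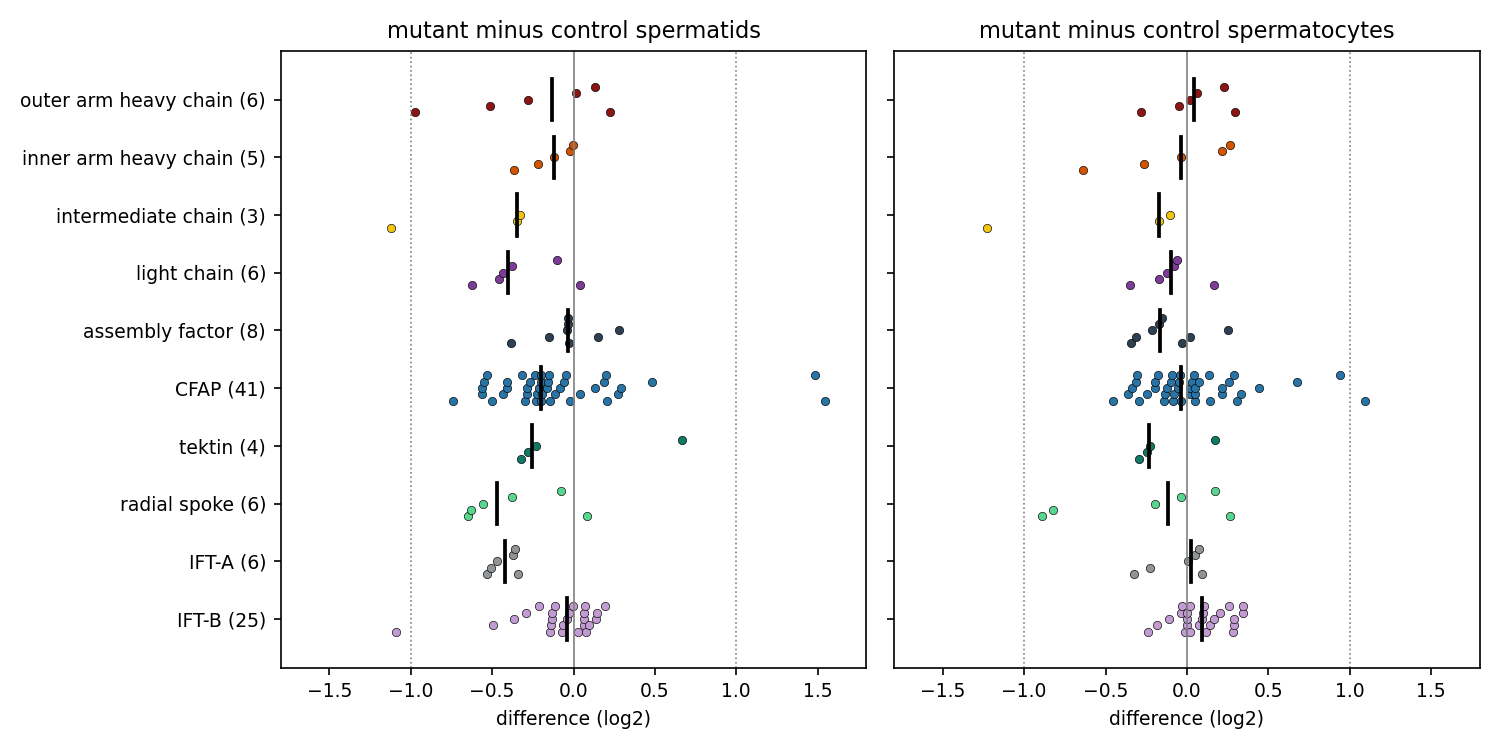
Difference between mutants and controls on the log2 scale for each member probe, grouped by role, in spermatids and in spermatocytes, with a bar at the median of each role, the number of probes in brackets and dotted lines at the 2-fold limit. Spermatid medians run between -0.47 for radial spoke genes and -0.03 for assembly factors, and no probe was called in either cell type.

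Some marker lists of other testis cells differed between the genotypes in spermatids, through a few genes each, while others overlapped. The mean log2 signal of 4 Sertoli cell genes was 5.51 to 6.03 in mutant spermatids and 5.52 to 6.07 in control spermatids, with 1 called higher (Sox9 by 1.21 log2). That of 6 spermatogonial genes was 4.84 to 5.27 in mutants and 5.15 to 5.28 in controls, with none called. The mean log2 signal of 8 myoid cell and fibroblast genes was 6.43 to 6.49 in mutant spermatids and 5.33 to 5.52 in control spermatids, with 2 of the 8 called higher (Igfbp7 by 3.09 and Lum by 2.97 log2), while Myh11 and Tagln differed by -0.37 and -0.15. That of 7 endothelial genes was 6.01 to 6.50 in mutants and 5.17 to 5.62 in controls, that of 8 macrophage genes 5.66 to 6.07 in mutants and 5.13 to 5.25 in controls, and that of 4 Leydig cell genes 6.31 to 7.46 in mutants and 5.33 to 6.23 in controls, each with 2 called higher. Of the endothelial pair, Cldn5 was higher by 3.44 log2 in mutant spermatids and by 3.11 in mutant spermatocytes, while Cdh5 and Eng differed by -0.06 and -0.20. Whether these signals come from other cells was not tested, nor was their part in the differences of the members. The 15 probes that rose in controls gave a second scale, with their mean in control spermatocytes set to 0 and in control spermatids to 100. On it the mutant spermatid arrays stood at 80.4, 82.6 and 95.8, and the mutant spermatocyte arrays of mice 2 and 3 at -28.4 and 15.2. The 3734 other probes that rose in controls placed the same mutant spermatid arrays at 97.5, 111 and 110, and the mutant spermatocyte arrays at -6.10 and 25.8. These positions carry no test. For the 14 probes that fell, mutant spermatids stood at 107, 112 and 119 of the same scale, and the 4360 other probes that fell placed them at 102, 112 and 114, so both lay past the control mean.

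In spermatocytes, where there were 2 mutant arrays, none of the 110 members was called between genotypes (limma), against 0.41% of all probes tested, and 4 had an unadjusted p under 0.05, against 1570 of all probes. The smallest adjusted p was 0.18. The median difference was -0.01 log2, against -0.01 over all probes, with 53 members above 0 and 57 below. The groups did not overlap for 20 members (18.2%), against 20.3% of all probes. The 95% interval of a member reached 0.55 log2 to either side (median). Rsph4a (ILMN_1241366) had 4.70 and 4.45 in mutant spermatocytes, against 5.31, 5.49 and 5.49 in control spermatocytes. It was detected on all 3 control arrays and on neither mutant array, at least 1.51-fold lower in mutants (adjusted p = 0.18). Rsph6a, a spoke head protein of the testis, had 8.07 and 8.04 in mutant spermatocytes, against 9.01, 9.0 and 8.74 in control spermatocytes, a difference of -0.89 ± 0.25 (adjusted p = 0.27). In spermatids Rsph6a differed by -0.63 (adjusted p = 0.067). For Dnaic2 the spermatocyte difference was -1.23 ± 0.42 (adjusted p = 0.51) and for Dnah2 (ILMN_1233826) it was -0.64 (adjusted p = 0.79), both with no overlap between the groups.

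Cfap69, a sperm tail protein chosen for description after its values were seen, had the widest spread between control mice. Probe ILMN_2628236 had 11.17, 10.80 and 10.86 in mutant spermatids, against 10.49, 10.68 and 7.83 in control spermatids, and 10.18 and 10.42 in mutant spermatocytes, against 9.90, 10.10 and 6.52 in control spermatocytes. Probe ILMN_2714209 had 11.84, 11.85 and 11.98 in mutant spermatids, against 11.72, 11.95 and 8.29 in control spermatids, and 11.04 and 11.44 in mutant spermatocytes, against 11.35, 11.34 and 6.66 in control spermatocytes. On both of these probes and in both cell types, control mouse 3 was the low array. The spermatid differences between genotypes of 1.49 ± 0.83 (adjusted p = 0.37) and 1.55 (adjusted p = 0.51) were 0.33 (adjusted p = 0.48) and 0.07 (adjusted p = 0.92) without that mouse. The remaining Cfap69 probe (ILMN_1248609) read 4.22 to 4.89 log2 on all tested arrays, near background, and does not show this. Of all 28751 probes, those 2 bright Cfap69 probes alone were at least 2 log2 units lower in control mouse 3 than in both other control mice in each cell type. Control mouse 1 had 3 such probes and control mouse 2 had none.

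**Figure D5:**
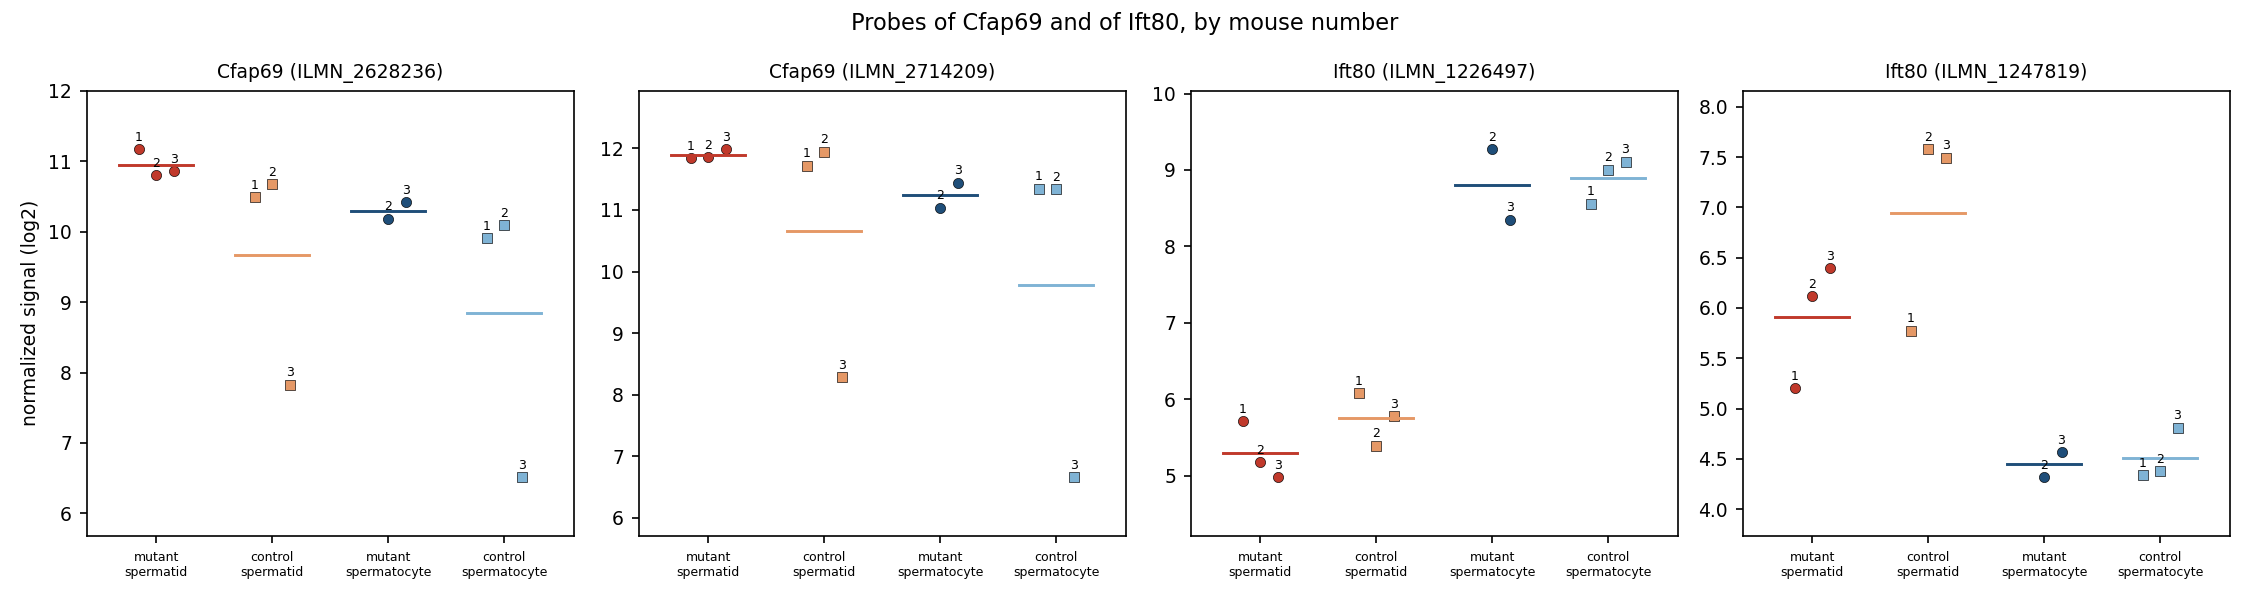
Log2 signal of both bright Cfap69 probes and of both Ift80 probes, 1 point for each array and a horizontal bar for the mean of each group. Control mouse 3 is more than 2 log2 units below the other control mice on both Cfap69 probes, and the Ift80 probes change in opposite directions between cell types.

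Other axoneme and cilium genes, whose symbols do not carry these prefixes, were followed as 112 tested genes of 119 on the array. The brightest probe of each gene was taken, whereas the shares of all probes given beside them also cover dim probes. In control spermatids 28 of the 112 were higher and 14 lower than in control spermatocytes, against 13% and 15.2% of all probes, with a median of 0.16 log2. Of 7 radial spoke proteins with other names 5 rose, among them Akap14, an anchoring protein of sperm (4.79 log2), Morn3 (4.13) and Dnajb13, a chaperone-like spoke protein (1.83). Of 18 further CFAP and doublet genes, 9 rose, including the microtubule inner proteins Ribc1 (4.54) and Efhc2 (4.01). Among the transcription factors of ciliary genes, Rfx1 (4.53), Rfx3 (2.43) and Foxj1 (2.02) rose, Rfx4 fell by 1.09 on the log2 scale, and Rfx2 differed by -0.15. Between mutant and control spermatids 2 of the 112 were called, against 4.03% of all probes, both higher: Kif3c, a kinesin subunit (1.10), and Calml4 (1.79), a light chain of a brush border myosin. Short of the 2-fold limit, Kif3a (-0.91), Bbs12 (-0.88), Dync2li1 (-0.86), Rfx4 (-0.70) and Spef1 (-0.68) were lower with an adjusted p under 0.05 (limma). At this p whatever the fold, 7.53% of all probes differed. The median of the 112 was -0.18. None was called between genotypes in spermatocytes.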

How the data were processed

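Total RNA of sorted cells (TRIzol) was hybridized to Illumina MouseWG-6 v2.0 arrays. The authors deposited a bead intensity for each probe and array, exported from Illumina software (GenomeStudio 2011.1 in the submitters' processing notes) with no background correction or normalization, and a detection p-value beside it. The authors also deposited log2 values made with limma 3.12.1 (normexp correction with control probes, quantile normalization), used here only as a check: the values computed here differ from them by at most 0.0458 log2.

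Intensities were background corrected by normexp with an offset of 16, the negative controls being inferred from the detection p-values, and quantile normalized over all 12 arrays (limma 3.58.1, R 4.3.3). Probes with a detection p under 0.05 on at least 1 of the 11 uncensored arrays were fitted in 1 linear model of 4 groups with array weights and moderated variances. No probe filter by annotation quality was made. p-values were adjusted by Benjamini-Hochberg over all 28751 probes. Gene symbols came from the platform table, where 34885 probes had 1 symbol, 18 several and 10378 none. Array precision is limited by the number of arrays; arrays of a group correlated at 0.963 to 0.987, and the median SD of members between arrays of a group was 0.17 to 0.22 log2. The labels give a spermatid and a spermatocyte array of equal number the same animal, which pairs them across cell types, and their deviations from group means correlated at 0.000941 to 0.227 in controls and -0.043 to 0.144 in mutants. The steps were tested on simulated data. The members and gene lists were chosen with earlier results of these data known. Genes named in the text were all members called between genotypes (or, with under 5 called, the 5 of smallest p), for each comparison of cell types the 10 largest called rises and falls with no overlap of groups, and the brightest probe of each role; other probes of these genes, members called in mutants alone and Cfap69 were named beside them.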

Additional observations from a re-analysis of the deposited data

Results flagged for a closer look

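The spermatocyte array of mutant mouse 1, which the labels mark as censored, lies outside all comparisons and carried signal of members that rise in spermatids. On the scale where control spermatocytes are 0 and control spermatids 100, the 15 member probes that rose in controls placed it at 16.5. The mutant spermatocyte arrays that were tested stood at -28.4 and 15.2. Cfap97d1 read 9.47 log2 there and Cfap58 10.04, above every tested spermatocyte array, while Cfap100 read 5.66. The mean of the 13 round spermatid markers was 10.79 on this array, against 8.12 to 10.23 on the tested mutant spermatocyte arrays and 7.19 to 9.05 in control spermatocytes. The 3734 other probes that rose in controls placed it at 34.6, against 25.8 for the spermatocyte array of mutant mouse 3.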

How the results depend on the processing

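Results were recomputed under 26 settings, 11 of which left out 1 array each. No called result changed sign. The count of members called between mutant and control spermatids was 0. It was 1 (lower) under median scaling, with a detection p under 0.01, and with detection on all arrays of a group. At a fold of 1.5 it was 3, with 1 higher and 2 lower. Leaving out 1 array gave 0 to 2, all lower, with 2 when control spermatid array 2 was out and 1 for control spermatid array 1, mutant spermatid arrays 1 and 2, mutant spermatocyte arrays 2 and 3 and control spermatocyte array 3. The median of the same comparison lay between -0.20 and -0.15. Between control cell types the count of 29 was 53 at a fold of 1.5 (22 higher, 31 lower), 19 when the fold of 2 itself was tested (9 higher, 10 lower) and 27 to 32 without 1 array, with medians between -0.08 and -0.02. In mutants the count of 38 was 14 when the fold of 2 itself was tested (5 higher, 9 lower) and 31 to 46 without 1 array, with medians between -0.28 and -0.18. Median scaling split the calls into 12 higher and 23 lower in controls (15 and 14 with quantile normalization) and 16 higher and 12 lower in mutants (16 and 22). In spermatocytes the genotype count and the count for the difference of effects were 0 without any 1 array. The spermatocyte median of -0.01 was -0.42 under median scaling, which moved the median of all probes to -0.16, and -0.03 to 0.07 without 1 array. Among named members, calls of the dim probes of Dnaaf1, Dnaaf6, Cfap74 and, in mutants, Ift80 were lost with no background correction and with an offset of 50, and those of Cfap61 with no background correction. Median scaling ended the mutant calls of Cfap65, Cfap70 and Ift140 and the control call of Dnaaf3. The causes of these changes were not tested. Leaving out both arrays of control mouse 3, a setting chosen after seeing the data, ended the call of Cfap74 and moved no count by over 1.5 times.

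With the replicate number as a fixed block, 2 members were called lower between spermatid genotypes (Dnah8 and Dnaic2), and 30 and 39 between control and mutant cell types. With the mouse as a random replicate block, 0, 29 and 38 were called. Same-numbered mice of the other genotype are not known to be littermates, and their deviations correlated at 0.0748 to 0.539, so the fixed block rests on a number alone. The slide of each array was not given in the sources used here, so slide as a block was not run. Dim probes near background have compressed differences, and 2 mutant spermatocyte arrays limit that group.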
